A study of Ovis aries with 9 samples.

Results

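Aminoacyl-tRNA synthetases join each amino acid to its transfer RNA and so supply the ribosome. Animal cells carry separate nuclear genes for the cytosol (names ending in 1, with FARSA and FARSB for phenylalanine) and for mitochondria (names ending in 2), while GARS1 and KARS1 serve both compartments and EPRS1 charges both glutamate and proline. Many of the cytosolic genes are known targets of ATF4, the transcription factor of the amino acid and stress response, and some of the enzymes sit in a multisynthetase complex. In the liver these enzymes feed the synthesis of albumin and other plasma proteins. The genes were chosen by name, with the call of CARS1 in these data already known. Of a list of 35, 34 had a row in the count table of 28837 genes. These were 19 cytosolic and 15 of 16 mitochondrial synthetases, and HARS2 was not analysed here. A question throughout was whether CARS1, the cysteinyl-tRNA synthetase of the cytosol, stood apart alone in lactation.

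The cells were hepatocytes from livers of female sheep (Ovis aries), picked by hand after collagenase digestion and given 1 Smart-seq3xpress library per cell, a plate method that covers full-length transcripts. There was 1 virgin sample, 6 samples from gestation (days 40 to 50, 50 to 70, 70 to 80, 90 to 100, 100 to 120 and 140 to 150) and 2 from ewes in lactation (days 7 and 15 postpartum). The labels give no treatment, breed, age or number of animals, and each stage had 1 sample. The p-values therefore reflect the spread among samples alone, in which stage, animal and technical differences cannot be told apart. Reads were summed over the 246 to 553 cells of a sample, 114865665 to 272944124 reads in all, and levels are in CPM, a gene's reads over the sample's total reads after scaling with TMM factors (0.920 to 1.11). Hepatocyte markers summed to 162360 CPM in the virgin sample, 152700 to 201700 CPM in gestation and 72495 to 99141 CPM in lactation, with 10 of 10 marker genes detected. Less RNA of a gene per cell and fewer cells that express it cannot be told apart in such sums.

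The cytosolic synthetases stood higher in lactation as a set, the mitochondrial ones did not, and CARS1 had the largest difference among them. The 19 cytosolic genes summed to 678 CPM at day 7 and 718 CPM at day 15 of lactation. In gestation they summed to 509 to 586 CPM (540 ± 33.5, SD, n = 6), and in the virgin sample to 621 CPM. Both lactation samples were thus above every gestation sample and above the virgin sample, and the lactation mean was 1.29 times that of gestation. The 15 mitochondrial genes summed to 174 and 167 CPM in lactation, 164 to 183 CPM in gestation (175 ± 7.53, SD, n = 6) and 154 CPM in the virgin sample, and the lactation values lay within the range of gestation. The ratio of the cytosolic to the mitochondrial sum, which does not depend on how samples are scaled, was 3.89 and 4.29 in lactation, 2.79 to 3.40 in gestation and 4.02 in the virgin sample. The virgin ratio therefore lay with lactation and not with gestation.

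**Figure D1:**
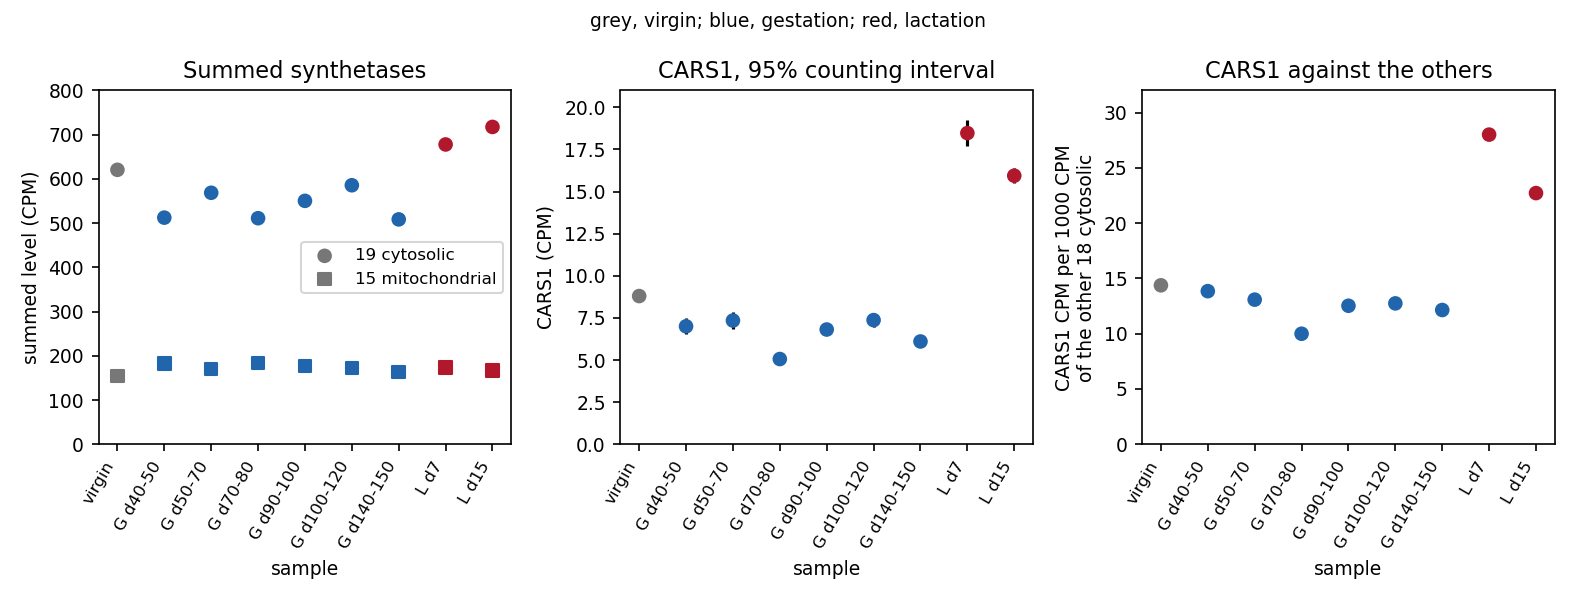
Left, summed level in CPM of the 19 cytosolic (circles) and 15 mitochondrial (squares) synthetases in each of the 9 samples; middle, CARS1 in CPM with its 95% counting interval; right, CARS1 in CPM per 1000 CPM of the other 18 cytosolic synthetases. Both lactation samples (red) lie above the 6 gestation samples (blue) in the cytosolic sum and in both CARS1 panels, and within them in the mitochondrial sum.

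CARS1 was the only synthetase called between gestation and lactation, a call that was known when the set was chosen and so is no independent support. It stood at 18.5 CPM at day 7 and 15.9 CPM at day 15 of lactation, against 7.00, 7.34, 5.06, 6.81, 7.37 and 6.10 CPM in the 6 gestation samples in order of day and 8.80 CPM in the virgin sample. The lowest lactation value was thus above the highest of all other samples. The lactation mean was 2.60 times that of gestation, a log2 difference (gestation minus lactation) of -1.38 (SE 0.18, adjusted p = 0.0414 by the quasi-likelihood test of edgeR, with the Benjamini-Hochberg method over all genes). Across birth, from days 140 to 150 to day 7 of lactation, CARS1 went from 6.10 CPM (95% Poisson interval 5.76 to 6.45) to 18.5 CPM (17.7 to 19.2), with 1 library on each side and intervals that cover counting error only. Over all genes 12 of 20263 were called in this comparison (0.0592%). The call rests on all 8 of these libraries, since without any 1 of the gestation or lactation libraries the adjusted p of CARS1 lay between 0.0541 and 0.209 and its log2 difference between -1.48 and -1.27. With upper-quartile scaling the adjusted p was 0.0522.

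CARS1 did not move alone in direction. Of the other 18 cytosolic synthetases 17 had a lower estimate in gestation than in lactation, with a median log2 difference of -0.37, while over all genes tested the median was 0.01 and 48.9% were lower in gestation. Both lactation samples lay above all 6 gestation samples in 9 of these 18 genes, or in 10 of 19 with CARS1. The share was 6.14% of all genes and 7.47% of the genes of at least 5 CPM on average. In none of the 19 did both lie below, which was the case for 4.86% of all genes and 6.35% of those of at least 5 CPM. At an unadjusted p under 0.05 in edgeR 8 of the 18 were lower in gestation (5.01% of all genes), and 0 of these passed after adjustment. With CARS1 the count was 9 of 19. The samples were scaled by TMM, and scaling by library size alone shifted the median of all genes from 0.01 to -0.18. Relative to that shift the cytosolic set, here with CARS1 included, stayed apart at a median of -0.56 with 19 of 19 lower. In 16 of 19 the groups did not overlap, against 12.7% of all genes.

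The genes next in size of difference were YARS1, WARS1 and MARS1, which charge tyrosine, tryptophan and methionine. YARS1 stood at 16.3 and 17.4 CPM at days 7 and 15 of lactation, against 7.39, 7.90 and 9.74 CPM (lowest, median, highest) in gestation and 11.9 CPM in the virgin sample, a log2 difference of -1.05 (SE 0.16, adjusted p = 0.0806, edgeR). Its lactation samples did not overlap any other sample. MARS1 stood at 20.6 and 19.9 CPM in lactation, against 9.88, 10.8 and 12.5 CPM in gestation and 14.1 CPM in the virgin sample (-0.89, SE 0.15, adjusted p = 0.0953, edgeR). It too was higher in both lactation samples than in any other. The span of MARS1 overlaps that of DDIT3 in the RefSeq gene order, and DDIT3 was listed at 0 in all 9 samples. Whether reads of that region were left uncounted was not tested, so the level of MARS1 is uncertain. Spans of other synthetases, such as GARS1, IARS1, NARS1, RARS1, EARS2 and SARS2, also overlap a neighbour, and any effect on their counts was not tested. WARS1, also known as an interferon-induced gene, stood at 24.6 CPM at day 7 and 13.8 CPM at day 15, against 8.87, 10.3 and 10.8 CPM in gestation and 9.17 CPM in the virgin sample (-0.93, SE 0.21, adjusted p = 0.16, edgeR). Day 7 carried most of that difference, and without its library the value was -0.45. In DESeq2 CARS1, YARS1, MARS1 and WARS1 were called (adjusted p = 5.28e-07, 9.05e-06, 8.81e-05 and 0.0192). They were among 523 genes that DESeq2 called out of 20263, where edgeR with TMM called 12. Scaled by library size alone, edgeR called CARS1, YARS1 and MARS1 (adjusted p = 0.021, 0.0296 and 0.0452), among 22 genes in all.

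**Figure D2:**
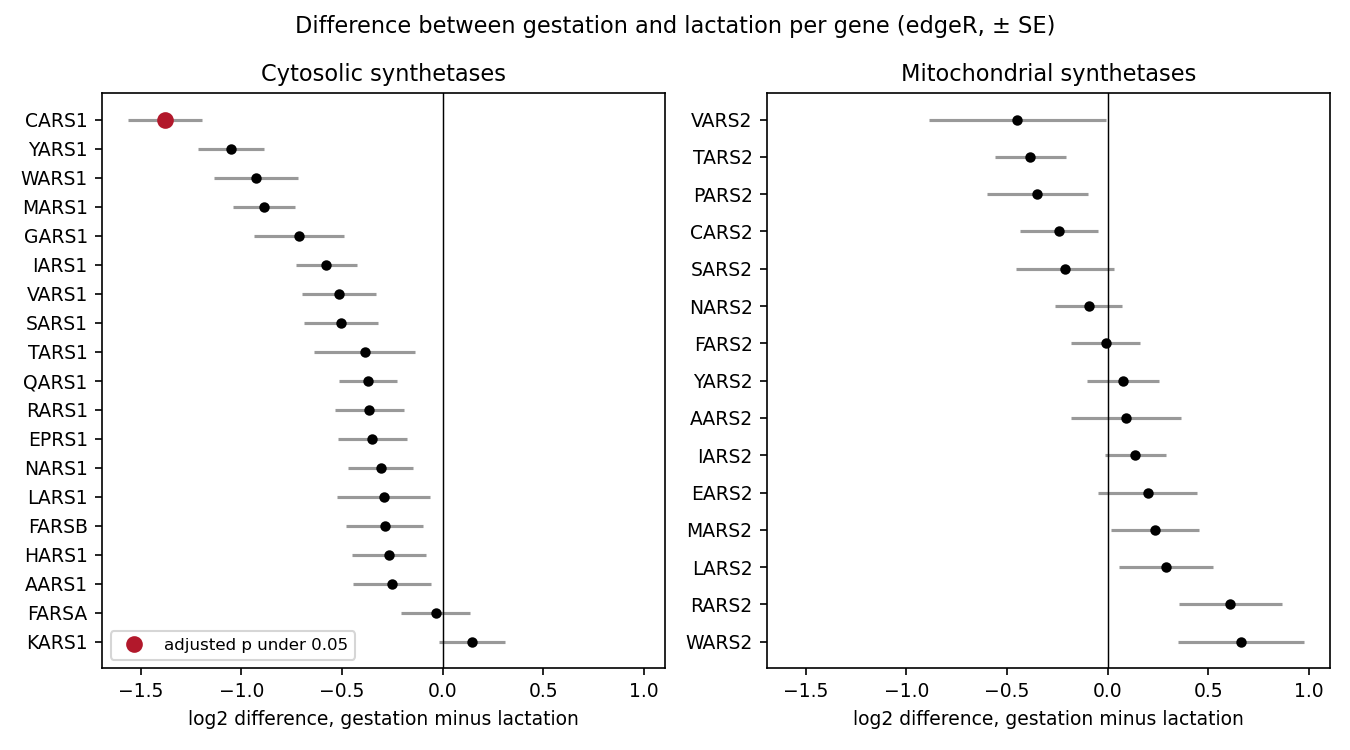
Log2 difference (gestation minus lactation, with its SE) of each of the 19 cytosolic and 15 mitochondrial synthetases in edgeR; negative values are higher in lactation. CARS1 (red, adjusted p = 0.0414) lies farthest from 0, at -1.38, and 18 of 19 cytosolic but 7 of 15 mitochondrial genes lie below 0.

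Among the others without overlap, GARS1, the glycyl-tRNA synthetase, stood at 15.9 and 15.0 CPM in lactation against 6.25 to 11.1 CPM in gestation (log2 difference -0.71, SE 0.22). IARS1, for isoleucine, stood at 39.6 and 33.4 CPM against 21.6 to 27.4 CPM (-0.58, SE 0.15), and VARS1, for valine, at 11.9 and 12.5 CPM against 6.98 to 10.1 CPM (-0.51, SE 0.19). SARS1, for serine, came close to overlap, at 49.9 and 60.8 CPM against 31.0 to 49.6 CPM (-0.50, SE 0.18). QARS1, for glutamine, and RARS1, for arginine, were 1.29 times as high in lactation (log2 difference -0.37, SE 0.14, and -0.36, SE 0.17). In the remaining 9 cytosolic genes the groups overlapped. EPRS1 stood at 107 and 86.9 CPM in lactation against 64.2 to 90.0 CPM in gestation (-0.35, SE 0.17, and -0.19 without the library of day 7), and TARS1, the threonyl-tRNA synthetase, at 121 and 139 CPM against 65.5 to 128 CPM. AARS1, FARSB, HARS1, LARS1 and NARS1 had ratios of lactation to gestation of 1.19 to 1.24, which rest on day 15. Without its library the log2 difference of AARS1 went from -0.25 to -0.053, of FARSB from -0.29 to -0.036, of HARS1 from -0.27 to -0.039, of LARS1 from -0.29 to -0.082 and of NARS1 from -0.31 to -0.10. FARSA had a ratio of 1.02, and its sign changed with upper-quartile scaling (log2 difference 0.0098). KARS1, the lysyl-tRNA synthetase, was the exception, at 63.4 and 67.8 CPM in lactation and 64.4 to 88.0 CPM in gestation, a log2 difference of 0.15 (SE 0.16) that was -0.046 with library size as the only scaling.

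Within these sums CARS1 took a larger share in lactation. Per 1000 CPM of the other 18 cytosolic synthetases it stood at 28.0 CPM at day 7 and 22.7 CPM at day 15, against 10.0 to 13.8 in gestation (12.4 ± 1.31, SD, n = 6) and 14.4 in the virgin sample. The groups did not overlap, and the ratio of the means was 2.05, while the other 18 as a sum were 1.28 times as high in lactation (660 and 702 CPM against 502 to 578 CPM). The ratio of CARS1 to its mitochondrial counterpart CARS2 was 1.51 and 1.27 in lactation, 0.522 to 0.777 in gestation and 0.698 in the virgin sample. These ratios hold within a library and were not tested, nor was the difference between CARS1 and YARS1. CARS1 had the largest absolute difference of the 34 synthetases in each of the 17 fits run (as reported and 16 others), which share their libraries.

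**Figure D3:**
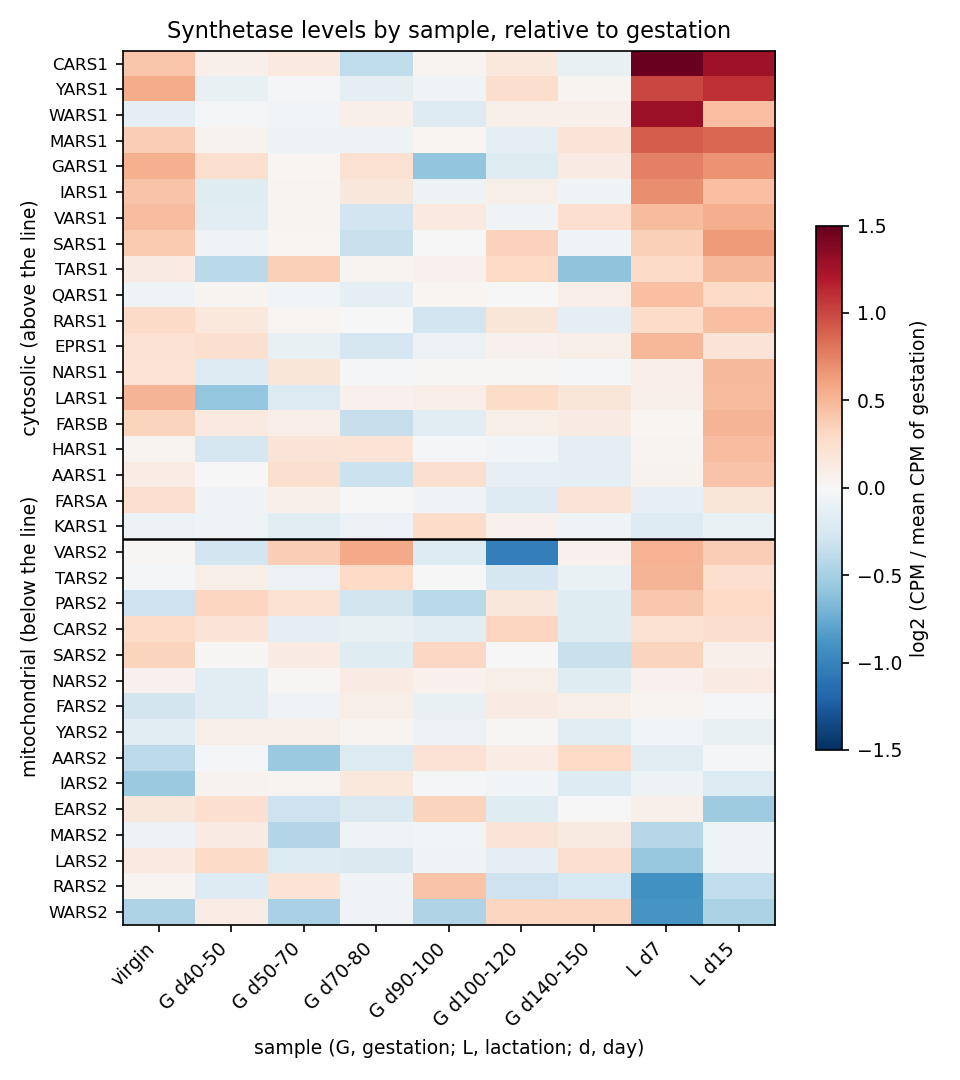
Level of each of the 34 synthetases in each sample as log2 of CPM over the mean CPM of the 6 gestation samples (red, higher; blue, lower), cytosolic above and mitochondrial below the line, each ordered by the difference in edgeR. The lactation columns are red in most of the cytosolic rows, most deeply in CARS1, YARS1, WARS1 and MARS1, and RARS2 and WARS2 are the bluest of the mitochondrial rows there.

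The mitochondrial synthetases showed no common direction. Of the 15 genes, 7 had a lower and 8 a higher estimate in gestation, with a median log2 difference of 0.08, and 0 were called (0 also in DESeq2, and 1 of 15 at an unadjusted p under 0.05, against 4.39% of all genes higher in gestation at that p). That gene was RARS2, which charges mitochondrial arginine, at 5.69 CPM at day 7 and 8.28 CPM at day 15 of lactation against 8.62, 9.83 and 14.4 CPM (lowest, median, highest) in gestation and 10.9 CPM in the virgin sample. Its log2 difference of 0.61 (SE 0.26) was 0.36 without the library of day 7, and limma with cells weighted equally gave 0.27. It was also the only mitochondrial gene whose groups did not overlap under TMM, 1 of 15 with lactation below, against 4.86% of all genes. WARS2 stood at 2.19 and 2.92 CPM in lactation and 2.89 to 5.08 CPM in gestation (0.66, SE 0.31). TARS2 stood at 29.6 and 24.7 CPM in lactation and 17.4 to 25.6 CPM in gestation (-0.38, SE 0.18, and -0.25 without the library of day 7), and CARS2 at 12.2 and 12.5 CPM against 9.25 to 13.1 CPM (-0.24, SE 0.19). The balance depended on the scaling, with 10 of 15 lower in gestation and 3 not overlapping, all higher in lactation, when library size was the only scaling. Under that scaling 12.7% of all genes were without overlap and higher in lactation, and the median of all genes was -0.18, so these counts were not read as a result. The cytosolic median minus the mitochondrial median lay between -0.50 and -0.32 on the log2 scale in all 17 fits.

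Per kilobase of the gene length that the table gives, TARS1 was the highest synthetase at 34.5 CPM per kb on average over the 9 samples, followed by SARS1 at 23.0 and KARS1 at 20.9. Among the mitochondrial genes IARS2, for isoleucine, led at 16.9 CPM per kb, ahead of CARS2 at 5.89 and TARS2 at 5.69. CARS1 ranked 15 of 19 in the cytosolic set at 3.38 CPM per kb, above WARS1 (3.23), GARS1 (2.76), LARS1 (2.76) and VARS1 (2.35), and below CARS2. The lowest CPM in the cytosolic set were those of CARS1, VARS1 and YARS1, and in the mitochondrial set those of VARS2, WARS2 and AARS2 (1.34, 3.59 and 3.83 CPM on average). Across the 9 samples the highest CPM was 3.65 times the lowest in CARS1, 2.78 times in WARS1, 2.54 times in GARS1 and 2.36 times in YARS1, and 1.36 times in FARSA, the steadiest of the cytosolic set.

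By structural class, the cytosolic enzymes of class I, built on a Rossmann fold, and of class II differed in their counts. In class I, which holds CARS1, YARS1, WARS1, MARS1 and the enzymes for isoleucine, leucine, valine, glutamine, arginine and glutamate, 10 of 10 had a lower estimate in gestation and in 8 of 10 both lactation samples lay above gestation, which was so for 6.14% of all genes, the share that bears on each count without overlap for the classes and lists of synthetases here. Their sum was 303 and 271 CPM in lactation against 185 to 211 CPM in gestation. In class II, 8 of 9 were lower in gestation and 2 of 9 (GARS1 and SARS1) did not overlap, with a sum of 374 and 447 CPM in lactation and 302 to 378 CPM in gestation, which overlapped. The medians were -0.55 and -0.29, and the difference between the classes was not tested. Of the 12 cytosolic genes listed as known ATF4 targets, 12 were lower in gestation (median -0.54, 7 not overlapping), and of the other 7 genes 6 were (median -0.29, 3 not overlapping). Of the 7 members of the multisynthetase complex on the list, 6 were lower in gestation and 4 did not overlap, and of the 12 outside it 12 were lower and 6 did not overlap.

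The proteins that hold the complex together were AIMP1, AIMP2 and EEF1E1. AIMP2 stood at 15.1 and 14.3 CPM in lactation against 8.51 to 12.0 CPM in gestation (log2 difference -0.48, SE 0.17), without overlap. EEF1E1 stood at 17.1 and 21.2 CPM against 9.35 to 17.1 CPM (-0.56, SE 0.22) and AIMP1 at 42.7 and 51.6 CPM against 38.0 to 57.9 CPM (-0.09, SE 0.19, and 0.047 without the library of day 15), and 0 of the 3 passed over all genes.

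Other genes known as ATF4 targets had a lower estimate in gestation in 19 of the 24 tested (26 were listed), with a median of -0.47 and 0 called, and 9 were lower and 2 higher at an unadjusted p under 0.05 in edgeR (5.01% and 4.39% of all genes). The asparagine synthetase ASNS stood at 8.20 CPM at day 7 and 16.4 CPM at day 15 of lactation against 4.02 to 6.54 CPM in gestation (-1.23, SE 0.26, adjusted p = 0.143, edgeR, and -0.65 without the library of day 15). The factor ATF5 stood at 457 and 313 CPM against 93.9 to 247 CPM (-1.16, SE 0.30, adjusted p = 0.229, edgeR) and 302 CPM in the virgin sample. FGF21, a hormone of the fasted liver, stood at 67.4 and 120 CPM against 0.434 to 47.4 CPM (-2.76, SE 1.23, and -3.71 without the library of days 100 to 120). DDIT4, an inhibitor of mTOR signalling, went the other way, at 14.5 and 21.9 CPM in lactation and 28.1 to 97.1 CPM in gestation (1.39, SE 0.47). ATF4 itself, chosen after its values were seen, stood at 367 and 343 CPM in lactation, 167 to 295 CPM in gestation and 330 CPM in the virgin sample (-0.64, SE 0.21, adjusted p = 0.348, edgeR). DESeq2, which called 523 of 20263 genes in this comparison, called ASNS and ATF5 (adjusted p = 0.00637 and 0.0414).

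In the list of cysteine supply and use, the amino acid that CARS1 charges, 8 of 13 members were lower in gestation with a median of -0.09, and 0 were called. GCLM, a subunit of the enzyme that opens glutathione synthesis, stood at 217 and 229 CPM in lactation against 125 to 159 CPM in gestation (-0.66, SE 0.16, adjusted p = 0.186 in edgeR and 0.0152 in DESeq2). ETHE1, which oxidises sulfide in mitochondria, stood at 161 and 167 CPM in lactation and 176 to 249 CPM in gestation (0.34, SE 0.17). CTH, which makes cysteine from cystathionine, stood at 34.6 and 39.2 CPM in lactation and 43.7 to 75.2 CPM in gestation (0.55, SE 0.23). CSAD, of taurine synthesis, stood at 156 CPM at day 7 and 416 CPM at day 15 against 29.8 to 261 CPM, and its log2 difference of -0.94 (SE 0.62) was -0.07 without the library of day 15 and -1.48 without that of day 7.

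The cytosolic elongation factors gave no such split. Of 8 genes 5 were lower in gestation (median -0.09), and in 1 both lactation samples lay above gestation (6.14% of all genes). It was EEF1B2, the exchange factor of elongation factor 1, at 361 and 395 CPM in lactation against 217 to 286 CPM in gestation (-0.58, SE 0.16, adjusted p = 0.257 in edgeR and 0.041 in DESeq2). EEF2, the translocase, stood at 542 and 540 CPM against 301 to 551 CPM (-0.33, SE 0.23), and EIF5A at 300.3 and 256 CPM against 183 to 270.4 CPM (-0.27, SE 0.19, and -0.15 without the library of day 7). GTPBP1 had -0.14 (SE 0.28).

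SESN1, a sestrin that restrains mTORC1, did not overlap in the other direction, at 5.29 and 3.99 CPM in lactation, 7.64 to 10.6 CPM in gestation and 6.64 CPM in the virgin sample (0.92, SE 0.22, adjusted p = 0.181 in edgeR and 0.00353 in DESeq2). Of 12 genes of mitochondrial translation and transamidation 5 were lower in gestation (median 0.05), of 16 genes of amino acid sensing 8 (median 0.02), and of 10 genes of tRNA proofreading and tRNA ends 8 (median -0.10). Among members of at least 5 CPM on average, the others with the largest differences were RRAGA (-0.15), CASTOR1 (0.14) and PPP1R15B (0.14) of amino acid sensing, TUFM (-0.20), QRSL1 (0.16), GATC (0.11) and MTFMT (-0.11) of mitochondrial translation, and PTRH2 (-0.28), AARSD1 (0.24), ELAC1 (-0.20) and TRNT1 (-0.14) of the tRNA list. RRAGD, a Rag GTPase that averaged 1.40 CPM and was chosen after its values were seen, stood at 1.498 CPM at day 7 and 8.04 CPM at day 15 against 0 to 0.854 CPM in gestation (-3.51, SE 1.04). Each of these log2 differences had an adjusted p over 0.05 in edgeR. Of the 11 genes of at least 5 CPM, ELAC1, which trims tRNA ends, did not overlap, at 20.6 and 20.4 CPM in lactation against 15.5 to 20.0 CPM in gestation. ELAC2, chosen after its values were seen, averaged 4.89 CPM and did not overlap either (5.74 and 5.78 against 4.06 to 5.58 CPM). Lactation thus lay above in 2 of 10 genes of the tRNA list, and above in 1 and below in 1 of 16 of amino acid sensing. Over all genes these shares were 6.14% and 4.86%. Across these 4 lists 0 genes were called over all genes tested in edgeR. At an unadjusted p under 0.05 in edgeR 1 was lower and 0 higher among the elongation factors, and 1 and 1 in amino acid sensing. There were 0 and 0 in mitochondrial translation and 0 and 0 in the tRNA list, against 5.01% and 4.39% of all genes.

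The difference of CARS1 lay in many cells. With each cell thinned to 155164 reads, 55.6% of 225 cells (exact 95% binomial interval 48.8 to 62.2) had a CARS1 read at day 7 of lactation and 59.0% of 495 cells (54.5 to 63.4) at day 15. In gestation the share ran from 20.0% (15.9 to 24.7) to 31.0% (24.8 to 37.7), and in the virgin sample it was 41.0% (36.5 to 45.5). Both lactation shares were thus above those of all other samples. The intervals cover the cells of 1 library and not the spread between samples or animals, and the shares were not tested between groups. Without thinning the shares were 63.4% and 65.8% in lactation, 25.2% to 39.1% in gestation and 50.5% in the virgin sample. Among the cells with a read the mean was 37.5 and 30.9 CPM at days 7 and 15 of lactation and 18.6 to 40.2 CPM in gestation, which overlapped. At this depth a cell without a read may still hold CARS1 RNA. More cells that express it and more RNA per cell can therefore not be told apart here. The cell with the most CARS1 reads held 1.68% to 3.34% of them in lactation and 3.56% to 7.40% in gestation, and without that cell in each sample the log2 difference was -1.42 (adjusted p = 0.034, edgeR). Both lactation shares were above all 6 gestation shares in 8 of 19 cytosolic synthetases, CARS1 among them, and in 2 of 15 mitochondrial ones. This count was not made for all genes and so was not read as a result about the sets. YARS1 had a read in 56.9% to 61.2% of cells in lactation and 26.2% to 41.8% in gestation, and MARS1 in 63.6% to 69.7% and 32.9% to 53.1%. CARS2, barely among the mitochondrial ones, had a read in 55.6% and 54.55% of cells at days 7 and 15 of lactation and in 38.8% to 54.46% in gestation. The interval of its highest gestation share, at days 70 to 80 (47.5 to 61.3), held both lactation shares. That of its lowest, at days 100 to 120 (33.6 to 44.2), held neither.

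**Figure D4:**
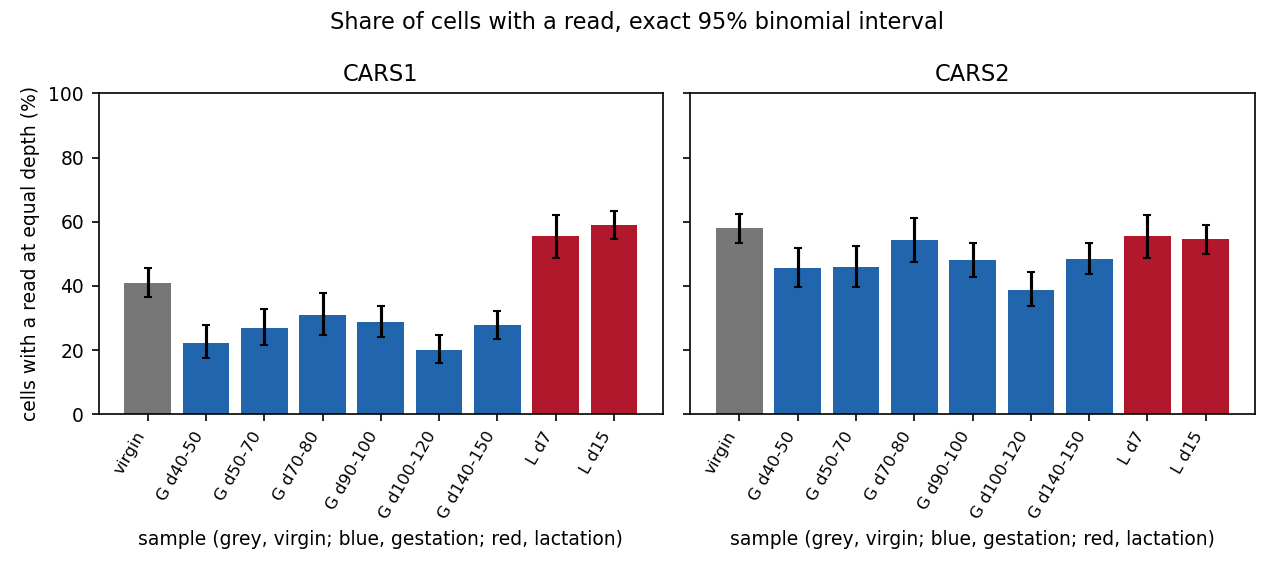
Share of cells with at least 1 read of CARS1 (left) and CARS2 (right) in each sample, with each cell thinned to 155164 reads and exact 95% binomial intervals. The intervals cover the cells of 1 library and not the spread between samples. CARS1 reaches 55.6% and 59.0% in lactation against at most 31.0% in gestation, while the CARS2 shares of 55.6% and 54.5% in lactation stand beside a highest gestation share of 54.5%.

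The median cell had reads of 13 cytosolic synthetases at day 7 and 14 at day 15, against 9 to 13 in gestation and 13 in the virgin sample. Within a sample CARS1 hardly followed the other cytosolic synthetases from cell to cell, with Spearman correlations of -0.03 to 0.16 across cells that share a library and sparse counts. Cells with a CARS1 read had 795 CPM of the other cytosolic synthetases on average at day 15 and cells without had 758 CPM, and at day 7 the values were 699 and 701 CPM.

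Of 5 neutrophil markers 2 moved with this comparison, and CSF3R, CXCR2 and LTF overlapped. These 2 were S100A8 (7.69 and 5.38 CPM at days 7 and 15 of lactation against 0.282 to 1.57 CPM in gestation) and S100A9 (3.92 and 2.14 against 0.0862 to 0.715 CPM). The 5 genes summed to 12.9 and 8.47 CPM at days 7 and 15 of lactation, 1.07 to 2.89 CPM in gestation and 4.38 CPM in the virgin sample. A read of at least 1 of the 5 was found in 14.6% and 8.68% of cells in lactation, against 3.09% to 7.61% in gestation and 10.9% in the virgin sample. Without those cells the log2 difference of CARS1 was -1.38 (adjusted p = 0.0445, edgeR), and 18 of 19 cytosolic genes were lower in gestation with a median of -0.42. The 20 most abundant genes held 22.3% to 27.2% of reads in lactation and 28.3% to 32.5% in gestation, and albumin alone 48043 and 32004 CPM against 91401 to 113350 CPM. The part of these differences in the levels was not tested beyond the scalings given. Marker sums of bile duct, endothelial, stellate, macrophage, lymphocyte and red cells were at most 224 CPM in any sample, and ranges overlapped between gestation and lactation for all 6. Of these markers 1, in the macrophage list, was at 0 in all samples.

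Among all genes of at least 20 CPM with a symbol other than LOC, those whose level over the 9 samples was most like that of CARS1 were SIRT2, a deacetylase (Pearson r of log2 levels 0.97), LTBR, a lymphotoxin receptor (0.95), TOR1A, of the endoplasmic reticulum (0.94), STARD10, a lipid transfer protein (0.94), and EEF1B2 (0.93), out of 3718 genes. Of the synthetases YARS1 (0.95), MARS1 (0.92) and QARS1 (0.89) came closest, and WARS2 and RARS2 were farthest (-0.68 for both). These are descriptions over 9 samples, 2 of which stand apart. CARS1 lies beside NAP1L4, PHLDA2 and SLC22A18 in the RefSeq gene order. NAP1L4, a histone chaperone, stood at 13.9 and 16.6 CPM in lactation and 13.2 to 15.3 CPM in gestation. SLC22A18, a membrane transporter, stood at 101 and 103 CPM against 65.2 to 105 CPM, and PHLDA2, an imprinted growth regulator of the placenta, was at most 0.0431 CPM. Of the 3 genes on the other side none was above 1.44 CPM, and for none of these neighbours with a test was the adjusted p under 0.05.

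Gestation and the virgin sample differed in 0 of 34 synthetases in edgeR, where 1 of 20263 genes was called (0.00494%), and in 0 with DESeq2. At an unadjusted p under 0.05 there were 2, against 4.45% of all genes. These were YARS1, lower in gestation (log2 difference -0.55, SE 0.22), and IARS2, higher in gestation at 55.2 to 70.6 CPM against 43.2 CPM in the virgin sample (0.55, SE 0.21). Of the cytosolic genes 16 of 19 had a lower estimate in gestation, with a median of -0.29, among them GARS1 (-0.53, SE 0.29), LARS1 (-0.51, SE 0.30), VARS1 (-0.47, SE 0.24) and IARS1 (-0.43, SE 0.20). Of the mitochondrial genes 7 of 15 were lower (median 0.03), and over all genes the median was 0.06.

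Lactation and the virgin sample differed in 0 of 34 synthetases as well (0% of all genes called in edgeR, and 0 synthetases in DESeq2). At an unadjusted p under 0.05 there were 2, CARS1 (log2 difference 0.97, SE 0.31, lactation minus virgin) and WARS1 (1.07, SE 0.34, and 0.60 without the library of day 7), against 4.94% of all genes. Among those of at least 5 CPM on average, MARS1 (0.52, SE 0.25) and YARS1 (0.50, SE 0.26) followed, RARS2 had -0.65 (SE 0.36, and -0.40 without the library of day 7) and LARS2, for mitochondrial leucine, -0.44 (SE 0.34, from -0.72 without the library of day 15 to -0.21 without that of day 7). In the cytosolic set 15 of 19 were higher in lactation (median 0.14) and in the mitochondrial set 8 of 15 (median 0.025), while over all genes the median was 0.05. The virgin phase was 1 sample, assumed to vary like the others, and these 3 comparisons share samples.

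Over the 6 gestation stages no synthetase had a called slope, in edgeR (0.0336% of all genes) or in DESeq2. LARS1, the cytosolic leucyl-tRNA synthetase, was the 1 of 34 with an unadjusted p under 0.05, against 6.62% of all genes. It was lowest at days 40 to 50 (11.4 CPM) and next at days 50 to 70 (14.9 CPM), and reached 20.8 CPM at days 100 to 120 before 19.5 CPM in the last stage. Per 100 days its log2 level had a slope of 0.71 (SE 0.29), which did not pass in edgeR (adjusted p = 0.736). The slope was 0.42 without the library of days 40 to 50 and 1.19 without that of days 140 to 150. CARS1 had a slope of -0.10 (SE 0.33), so that its gestation values showed no trend beyond their error, and VARS1 one of 0.36 (SE 0.29, and 0.23 without the library of days 140 to 150). TARS1 was lowest at both ends, with 75.0 CPM at days 40 to 50 and 65.5 CPM at days 140 to 150 and 102 to 128 CPM between. Its slope of -0.32 (SE 0.45) became 0.58 without the last stage. Among the synthetases of at least 5 CPM on average, IARS2 (-0.27, SE 0.21, and -0.17 without the last stage), MARS2 (0.26, SE 0.32) and YARS2 (-0.26, SE 0.27) had the next largest slopes. That of MARS2 was 0.60 without the library of days 40 to 50 and 0.082 without that of days 50 to 70. Below 5 CPM AARS2 had a slope of 0.58 (SE 0.38), WARS2 of 0.46 (SE 0.42) and PARS2 of -0.39 (SE 0.39), larger in size than that of IARS2 and smaller than that of LARS1. In the cytosolic set 13 of 19 slopes were positive (median 0.04) and in the mitochondrial set 5 of 15 (median -0.10).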

How the data were processed

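The submitters' processing notes name featureCounts 2.0.1 beside HISAT2 2.1.0 and Trimmomatic 0.39. The genome build, the strand setting and the use of molecular identifiers are not given in the sources used here. The authors deposited whole-number read counts for each cell, and each gene's length comes from the same table. The stage of each of 3404 cells came from its column name. Of 28861 rows 24 named no gene (0.474% of reads) and were left out. Of the cells 0 held the same counts as another, none was left out of the sums, and doublets were not called since the labels' protocols have cells picked singly.

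Each sample's cells were added up per gene. Tests were made with edgeR 4.0.16 under R 4.3.3 (filterByExpr, TMM, glmQLFit, glmQLFTest, Benjamini-Hochberg adjustment over all genes, threshold 0.05), with a term per phase over 9 samples, or the midpoint of the days over the 6 gestation samples. All 34 synthetases passed the filter. Alternatives were library size as the only scaling, no filter, DESeq2 1.42.0, limma 3.58.1 on log2(mean CPM over cells + 1), each sample left out, and the cell with the most CARS1 reads left out of each sample. Upper-quartile scaling and leaving out cells with a neutrophil marker read were chosen after seeing the data. The fit was also run on simulated counts that held no stage differences within a phase, and the outcome is not reported here. Cells were thinned to the 10th percentile of reads, 155164, which left out 341 cells (13 to 58 per sample).

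The synthetases and the further lists were chosen with earlier results of these data known, the call of CARS1 among them. The genes named are CARS1, any synthetase called, the 6 largest differences per contrast among those of at least 5 CPM on average, the 3 highest per kb and 3 lowest in CPM per set, up to 4 genes of at least 5 CPM per further list, neighbours of CARS1 and the 5 genes most like it. Other genes named, such as ATF4, RRAGD and PARS2, were chosen after their values were seen. Levels per kb use the deposited gene length, not the coding length that had been planned. Gene order came from RefSeq assembly ARS-UI_Ramb_v3.0, which held all 28837 symbols. A table of normalized values was not used.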

Additional observations from a re-analysis of the deposited data

How the results depend on the processing

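The count of synthetases called between gestation and lactation was 1, with 3 under library size as the only scaling, 4 in DESeq2, 0 with upper-quartile scaling (chosen after seeing the data) and 0 to 1 with a sample left out, the 1 being without the virgin sample. Over all 20263 genes 12 were called as reported, 22 with library size as the only scaling, 523 in DESeq2 and 7 with upper-quartile scaling. The log2 difference of CARS1 was -1.34 with upper-quartile scaling, ran from -1.48 to -1.27 with a sample left out, and kept its sign in all 17 fits. The counts for the other 3 comparisons were 0 in every fit run. Of 1309 recomputed values 36 had another sign than reported, in 19 gene and contrast pairs, and the cause was not tested. With library size as the only scaling these were KARS1 (-0.046), AARS2 (-0.10), IARS2 (-0.049), YARS2 (-0.11), CASTOR1 (-0.055), PPP1R15B (-0.054), QRSL1 (-0.031) and GATC (-0.081). In limma with cells weighted equally they were KARS1 (-0.057), IARS2 (-0.091), MARS2 (-0.058), YARS2 (-0.22), CASTOR1 (-0.040), PPP1R15B (-0.11) and GATC (-0.083). FARSA had 0.0098 with upper-quartile scaling, and FARS2 had 0.029 there, 0.011 in DESeq2 and 0.016 without cells with a neutrophil marker read. With a sample left out the ranges that crossed 0 were -0.18 to 0.13 for FARSA, -0.072 to 0.53 for EARS2, -0.040 to 0.023 for FARS2 and -0.22 to 0.047 for AIMP1. They were -0.51 to 0.38 for GTPBP1, -0.46 to 0.25 for RRAGA, -0.061 to 0.37 for CASTOR1, -0.34 to 0.86 for PPP1R15B, -0.26 to 0.62 for GATC, -0.52 to 0.0041 for PTRH2, -0.10 to 0.70 for AARSD1 and -0.32 to 0.049 for TRNT1. The slope of TARS1 ran from -0.89 to 0.58. No paired analysis was possible because the labels give no replicate numbers. With 2 lactation samples and 1 virgin sample, the precision is limited by the number of samples.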
